A study of Mus musculus with 6 samples.

Results

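The comparison described here sets macrophages treated with 25-HC together with IL4 against macrophages treated with IL4 alone. Its members are 2 of the 6 RNA-seq libraries of the series, chosen by their treatment labels, with 1 library on each side. After genes were kept that reached at least 1 CPM, the count of a gene scaled to the library size, in at least 1 library, 11898 of the 16775 genes in the deposited tables were compared. The cells were bone-marrow-derived macrophages of C57BL/6 mice, obtained by culturing marrow for 5 days with 10 ng/ml of the macrophage growth factor M-CSF in medium with 10% serum, and every library received 1 ug of RNA extracted with TRIzol. The 25-HC cultures were exposed to IL4 and 25-HC together for 24 hours, and the cultures they are set against to IL4 alone for the same time. The 4 other libraries of the series received IL4 with fatostatin, betulin, PF429424 or 1,10-Phen for 24 hours and are used here only to place the level of a gene. All 6 groups therefore share IL4, and a library of macrophages without IL4 was not analysed here, so a level in the IL4 library is not a measure of what IL4 induced. The labels give neither the doses, the vehicle, the sex and age of the mice nor the number of animals behind a library, and these are cultured marrow cells, not the airway that the title of the series names.

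The labels do not spell out 25-HC; the abbreviation commonly stands for the oxysterol 25-hydroxycholesterol. As background, oxysterols act on macrophage lipid genes in at least a pair of ways. They bind INSIG proteins, which hold the SREBP transcription factors in the endoplasmic reticulum, and SREBP2 is the factor that switches on cholesterol synthesis and LDL uptake. They are also ligands of the LXR nuclear receptors, which pair with RXR and switch on cholesterol export and, partly through SREBP1, fatty acid synthesis. IL4 acts through its receptor and the transcription factor STAT6 and drives the alternative activation program of macrophages, with products such as arginase, the mannose receptor and resistin-like and chitinase-like proteins. The title of the series names SREBP2 and alternative activation, so the comparison asks how IL4-treated macrophages differed when 25-HC was present.

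The 2 libraries were of like depth, with 21169667 counts with 25-HC and 20181396 with IL4 alone, and the totals of the other 4 lay between these values. With 1 library a side there is no replicate error, no test was run and no p-value is given. Every log2 ratio below is 25-HC over IL4 alone on counts scaled by TMM, so a positive value is a higher level with 25-HC, and the exact 95% interval given with some ratios covers counting error only. A gene is called at least 2-fold higher or lower where its log2 ratio is at least 1 in size and its interval excludes 0. Across genes the levels of the 25-HC library had a rank correlation of 0.969 with those of the IL4 library, and the other 4 compounds had correlations between 0.926 and 0.993 with it. The labelled cell type was checked against its markers: all 10 macrophage markers were detected in both libraries, among them Csf1r, the M-CSF receptor, at 1060 CPM with 25-HC and 1968 CPM with IL4 alone, Cd68 at 1707 CPM with 25-HC and 1736 CPM with IL4 alone and Spi1, the lineage factor PU.1, at 463 CPM with 25-HC and 374 CPM with IL4 alone. Of the 10 macrophage markers 8 had a ratio below 0 and 2 above it, with a median of -0.21. Their summed level was 7916 CPM with 25-HC, the lowest of the 6 libraries, and 11402 CPM with IL4 alone. Markers of other cells were summed in each library in the same way. The summed level of 12 neutrophil markers was 827 CPM with 25-HC and 825 CPM with IL4 alone, within a range of 468 to 913 CPM over the 6 libraries. The 10 stromal markers summed to 79.6 CPM with 25-HC and 123 CPM with IL4 alone, and the 8 osteoclast markers to 1365 CPM with 25-HC and 1153 CPM with IL4 alone. The endothelial markers summed to 14.9 CPM with 25-HC and 31.2 CPM with IL4 alone, and the B cell markers to 29.1 CPM with 25-HC and 37.5 CPM with IL4 alone. Eosinophil markers summed to 21.0 CPM with 25-HC and 18.5 CPM with IL4 alone, dendritic cell markers to 11.8 CPM with 25-HC and 16.9 CPM with IL4 alone, and T cell markers to 7.06 CPM with 25-HC and 9.78 CPM with IL4 alone. Mast cell and erythroid markers stayed below 1 CPM in sum in each of the 6 libraries. Among these lists at least 2-fold higher members were Retnlg, Lcn2 and Ltf of the 12 neutrophil markers and Cd14 of the macrophage markers, and lower ones were Csf3r (neutrophil), Acta2 (stromal), Cd2 (T cell), Cd79b (B cell), Dpp4 (dendritic cell), Pecam1 (endothelial) and Adgre1 and Mertk (macrophage). In these bulk samples, fewer cells of a type and less RNA per cell cannot be told apart, and the part of other cells in the results below was not tested.

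Of the 11898 genes, 389 were at least 2-fold higher with 25-HC, which is 3.27% of genes, and 677 were at least 2-fold lower, which is 5.69%. The median log2 ratio over all genes was 0.0073, with 6029 genes above 0 and 5864 below 0, and the middle of the distribution was narrow, with the 5th percentile at -1.07 and the 95th at 0.82. Both shares serve as the background for the gene lists that follow. Predicted genes and clone names set aside, and with 50 counts and 5 CPM required in the 25-HC or the IL4 library, the 15 highest and the 15 lowest ratios are described here or with their gene group. The highest was Efcc1, a coiled-coil gene, with 545 counts with 25-HC and 9 with IL4 alone and a log2 ratio of 5.6 (interval 4.95 to 7.02). It was followed by the desaturase gene Scd2, by Flnc, which encodes the actin cross-linker filamin C, at 4.1 (interval 3.56 to 5.06), and by the cholesterol exporter gene Abca1. Zfp469 was at 3.84, Dio2, which encodes the deiodinase that activates thyroid hormone, at 3.7, the orphan receptor gene Gprc5b at 3.21 and the Nogo receptor gene Rtn4r at 3.15. The ubiquitin ligase gene Fbxo32, known as atrogin in muscle, was at 3.1, the chromatin factor gene Hmga2 at 2.92 and the small GTPase gene Gem at 2.92. Libraries of other compounds also stood above IL4 alone for several of these genes. Efcc1 was at 3.91 with betulin and 3.84 with PF429424, and Dio2 at 3.22 with each. Betulin gave 2.86 for Zfp469 and 2.69 for Gprc5b, and for Rtn4r (3.29) and Gem (3.0) it gave more than 25-HC did. Gem and Flnc were not above IL4 alone with fatostatin or 1,10-Phen. The remaining high ratios were those of Trib3, Chac1, Scd1 and Soat2. The lowest ratio belonged to Scn3a, a sodium channel gene, with 8 counts with 25-HC and 535 with IL4 alone and -5.76 (interval -7.32 to -5.11). The other low extremes were Retnla, P2ry12, Hpgd, Cbr2, Ccl24, Rnase2a, F13a1 and Cd163, described below, the globin-like gene Adgb (-3.78), the ribonuclease gene Rnase4 (-3.46), Nxpe5 (-3.31), Klhl33 (-3.25) and the membrane protein genes Ms4a6b (-3.36) and Ms4a4a (-3.35). Rnase2a, Ms4a6b and Ms4a4a have near-identical relatives between which the counting could split reads, so their values are uncertain.

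**Figure D1:**
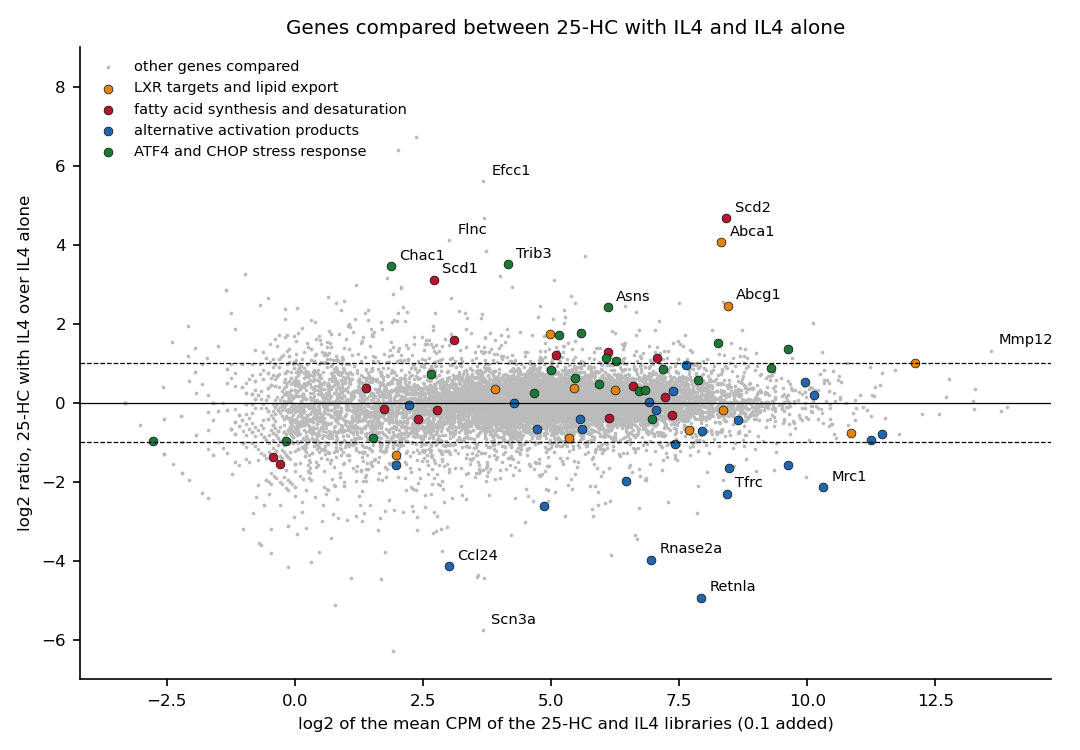
Log2 ratio of 25-HC with IL4 over IL4 alone (vertical axis) against the log2 mean CPM of the 2 libraries (horizontal axis), 1 point per gene for 11898 genes, with the members of 4 gene lists in colour and dashed lines at 2-fold. Abca1, Abcg1 and Scd2 stand high among abundant genes, Retnla and Rnase2a stand low, and most genes lie between the dashed lines.

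The genes of cholesterol export were among the highest ratios of the comparison. Of 12 compared LXR targets and lipid export genes, 4 were at least 2-fold higher with 25-HC and 1 was lower, the median log2 ratio was 0.33, and 6 of the 12 had their highest level of all 6 libraries with 25-HC, against 17.3% of all genes. Abca1, which loads cholesterol and phospholipid onto lipid-poor apolipoprotein, was at 603 CPM with 25-HC, 46.6 with fatostatin, 31.7 with betulin, 5.56 with PF429424, 53.9 with 1,10-Phen and 36.1 with IL4 alone. It was the highest of the 6 libraries by a wide margin, with a ratio of 4.06 (interval 3.96 to 4.17). Abcg1, which passes cholesterol to high-density lipoprotein, was at 589 CPM with 25-HC, 124 with fatostatin, 142 with betulin, 85.5 with PF429424, 88.9 with 1,10-Phen and 108 with IL4 alone. The 25-HC library was again the single high one, and the ratio was 2.45 (interval 2.39 to 2.52). Mylip, a ubiquitin ligase gene that LXR switches on, was at 48.1 CPM with 25-HC, 16.6 with fatostatin, 10.6 with betulin, 6.2 with PF429424, 35 with 1,10-Phen and 14.5 with IL4 alone, with a ratio of 1.73 (interval 1.55 to 1.92). Lpl, the lipoprotein lipase gene, was at 5863 CPM with 25-HC, 3726 with fatostatin, 3652 with betulin, 4152 with PF429424, 2048 with 1,10-Phen and 2931 with IL4 alone, at the 2-fold threshold with 1.0. With DESeq2 size factors its ratio was 0.988 and the list had 3 higher members. Smaller values with the 25-HC library still the highest were those of Lpcat3, a phospholipid acyltransferase gene (0.37), and Pltp, the phospholipid transfer protein gene (0.35). Other members did not share this direction: Apoe was at 1366 CPM with 25-HC and 2345 CPM with IL4 alone, Smpdl3a had a ratio of -0.69, Abca7 of -0.91 and the small GTPase gene Arl4c of -0.19. Apoc2, a cofactor of the lipase, had 47 counts with 25-HC and 119 with IL4 alone, but 79.5% of its exon bases are shared with another annotated gene and its value is uncertain. The receptors themselves moved little or downward: of 4 genes Rxra, the partner receptor, was lower (75.5 CPM with 25-HC and 152 CPM with IL4 alone, ratio -1.01), Nr1h3 (LXR alpha) was at -0.30, Nr1h2 (LXR beta) at -0.02 and Rxrb at 0.17, with a median of -0.16.

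The promoter of Abca1 is shown because it holds a direct repeat of the kind LXR binds, and Abca1 is the list member with the largest ratio. Promoters are RefSeq sequences on GRCm38.p6 from 250 bases before the transcript start to 50 after it, 5′ to 3′ on the strand of the gene, with positions counted from the start base as 0. Capitals mark the match to GGTNA, 5 bases, GGTNA, searched on both strands, here from -67 to -53 on the reverse strand at chr4:53159846-53160145 (minus strand).
Abca1: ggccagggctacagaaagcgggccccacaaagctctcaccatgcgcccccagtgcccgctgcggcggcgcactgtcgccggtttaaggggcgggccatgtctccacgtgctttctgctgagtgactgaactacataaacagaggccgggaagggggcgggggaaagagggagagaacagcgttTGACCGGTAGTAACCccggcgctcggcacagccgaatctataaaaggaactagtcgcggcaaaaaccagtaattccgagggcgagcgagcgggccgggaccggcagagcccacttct
The repeat occurs in 0.718% of the 32851 promoters in the RefSeq table, and 0.818% of the 27025 genes there hold it in at least 1 promoter. Of the 12 LXR list members 9 had a promoter there, and Abca1 and Srebf1 held a match. In the fatty acid list 13 of 16 members had a promoter, and Fasn, Elovl1 and Acsl3 held a match. The match in Fasn, named after the values were seen, has the same 15 letters as that in Abca1, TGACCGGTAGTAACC, and lies from -225 to -211. A match is a description of letters, not a bound site.

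Genes of fatty acid synthesis were split, with a strongly higher core. Of 16 compared members 6 were at least 2-fold higher with 25-HC and 2 were lower, and the median was 0.26. For 7 of 16 the level was the highest of the 6 libraries with 25-HC, against 17.3% of all genes. The stearoyl-CoA desaturases, which place the first double bond in saturated fatty acids, led the list. Scd2 was at 659 CPM with 25-HC, 19.7 with fatostatin, 30.9 with betulin, 10.9 with PF429424, 134 with 1,10-Phen and 25.9 with IL4 alone, with a ratio of 4.66 (interval 4.55 to 4.79); the 1,10-Phen library was the next highest, and the others were low. Scd1 was at 11.6 CPM with 25-HC, 0.565 with fatostatin, 0.797 with betulin, 0.0985 with PF429424, 0.268 with 1,10-Phen and 1.26 with IL4 alone, with a ratio of 3.11 (interval 2.63 to 3.84). The genes are closely similar neighbours on chromosome 19, so reads of one may be counted for the other. Acaca, acetyl-CoA carboxylase, which commits carbon to fatty acids, was at 97.9 CPM with 25-HC, 42.3 with fatostatin, 40.7 with betulin, 51.9 with PF429424, 24 with 1,10-Phen and 40.00 with IL4 alone, with a ratio of 1.29. Fasn, fatty acid synthase, was at 184 CPM with 25-HC, 86.3 with fatostatin, 92.3 with betulin, 92.7 with PF429424, 36.4 with 1,10-Phen and 84.2 with IL4 alone, with a ratio of 1.13. For both genes the 25-HC library was the highest and the 1,10-Phen library the lowest. Acsl3, an acyl-CoA synthetase gene, was at 12.9 CPM with 25-HC and 4.24 CPM with IL4 alone (1.58), and Mid1ip1, an activator of acetyl-CoA carboxylase, at 47.2 CPM with 25-HC and 20.5 CPM with IL4 alone (1.2). Elovl5, an elongase gene, had a ratio of 0.42 with its highest level in the 25-HC library. Acly, the citrate lyase that supplies acetyl-CoA, was on the other side at -0.32, and the desaturase gene Fads1 at -0.38. The 2 lower members had few counts, Acacb with 7 counts with 25-HC and 24 with IL4 alone and Fads2 with 7 counts with 25-HC and 21 with IL4 alone. Srebf1, which encodes SREBP1, was at 83.7 CPM with 25-HC, 70.02 with fatostatin, 69.7 with betulin, 64.9 with PF429424, 114 with 1,10-Phen and 67.7 with IL4 alone, a ratio of 0.31.

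**Figure D2:**
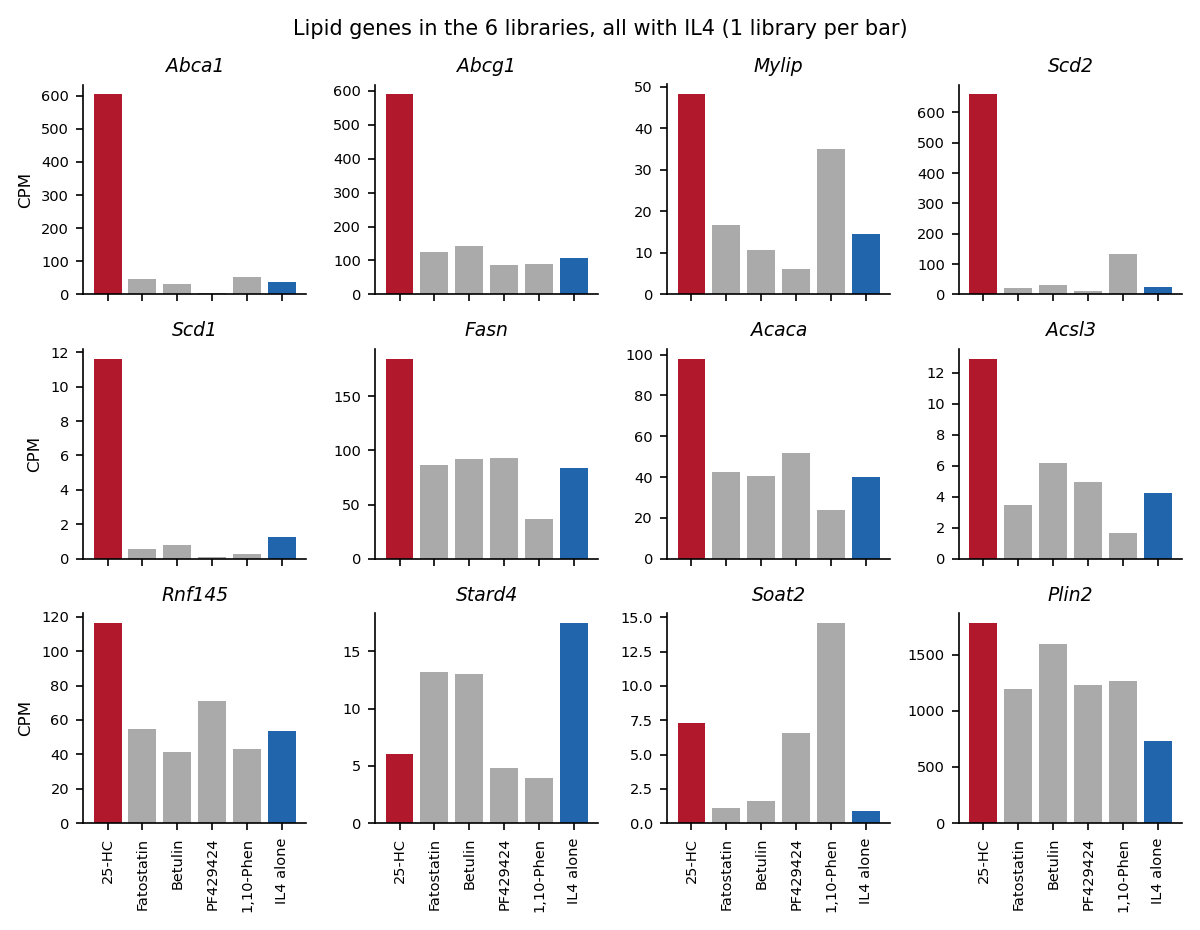
Level in CPM (vertical axis, from 0) of 12 lipid genes in each of the 6 libraries (horizontal axis), 1 bar per library, with 25-HC in red, IL4 alone in blue and the other compounds in grey. The 25-HC bar is the highest of 6 for Abca1, Abcg1, Mylip, Scd2, Scd1, Fasn, Acaca, Acsl3, Plin2 and Rnf145, while Soat2 is higher with 1,10-Phen.

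Genes of cholesterol synthesis were mostly a little lower with 25-HC. Of 22 enzymes 17 had a ratio below 0 and 5 above it, the median was -0.30, and 1 was at least 2-fold lower. Dhcr7, which acts late in the pathway, was at 31.2 CPM with 25-HC and 52 CPM with IL4 alone (-0.73), Cyp51, the lanosterol demethylase, at -0.58, Lbr at -0.56, Mvk, mevalonate kinase, at -0.56 and Fdps, farnesyl diphosphate synthase, at -0.53. Other steps were nearer their level with IL4 alone: the synthase gene Hmgcs1 was at 42.6 CPM with 25-HC and 49.4 CPM with IL4 alone, a ratio of -0.21, Sqle, squalene epoxidase, at 0.17 and Idi1 at -0.28. For sterol uptake and SREBP control, 1 of 15 genes was at least 2-fold higher and 2 were lower, with a median of -0.12. Stard4, a sterol carrier, was at 6.06 CPM with 25-HC, 13.2 with fatostatin, 13 with betulin, 4.78 with PF429424, 3.91 with 1,10-Phen and 17.5 with IL4 alone, a ratio of -1.51. Rnf145, a ubiquitin ligase of the endoplasmic reticulum, was the higher gene, at 116 CPM with 25-HC, 55 with fatostatin, 41.6 with betulin, 71.2 with PF429424, 43.3 with 1,10-Phen and 53.8 with IL4 alone and a ratio of 1.11, and was highest with 25-HC. Srebf2 itself was at -0.39, Scap, the SREBP escort, at 0.40, Insig1 at -0.24 and Insig2 at -0.12. The sterol element core TCACNCCAC was found in 1.24% of promoters and in 1.44% of genes with a promoter. Of the 17 synthesis enzymes with a promoter in the table, Hmgcs1 held it. Of the 10 uptake and control genes with a promoter, 0 held it, so none of these promoters is shown.

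In lipid storage and oxysterol handling, a few genes stood out in lists that were otherwise near 0. Of 15 esterification and oxysterol genes 1 was at least 2-fold higher and 2 were lower (median -0.12). Soat2, a sterol acyltransferase that makes cholesteryl esters, was at 7.29 CPM with 25-HC, 1.08 with fatostatin, 1.59 with betulin, 6.55 with PF429424, 14.6 with 1,10-Phen and 0.885 with IL4 alone, with a ratio of 2.91 (interval 2.35 to 3.81); PF429424 and 1,10-Phen were high as well, whereas Soat1, its main macrophage relative, was at 0.06. Cyp27a1, a mitochondrial sterol hydroxylase, was at 6.33 CPM with 25-HC and 20.1 CPM with IL4 alone (-1.65) and Cyp39a1, an oxysterol hydroxylase, at 0.729 CPM with 25-HC and 2.47 CPM with IL4 alone (-1.64). Ch25h, the enzyme that makes the oxysterol itself, was at 4.46 CPM with 25-HC and 4.66 CPM with IL4 alone and had its lowest level of the 6 libraries with 25-HC. Of 24 genes of lipid droplets and fatty acid use, 2 were at least 2-fold higher and 1 was lower (median -0.04). Plin2, the droplet coat protein, was at 1778 CPM with 25-HC, 1191 with fatostatin, 1594 with betulin, 1228 with PF429424, 1268 with 1,10-Phen and 735 with IL4 alone, a ratio of 1.28. Hilpda, a droplet protein that restrains lipolysis, was at 63.5 CPM with 25-HC, 32.5 with fatostatin, 50.4 with betulin, 46.3 with PF429424, 125 with 1,10-Phen and 14 with IL4 alone, a ratio of 2.17, and the IL4 library was the low one of the 6. Lpin1, a phosphatidate phosphatase gene, was the lower one at 11.8 CPM with 25-HC and 42 CPM with IL4 alone (-1.82). Cd36, a fatty acid importer, was at 0.82 and Abhd5, a lipase coactivator, at 0.86, while genes of fatty acid oxidation stayed close to 0, with Cpt1a at -0.29 and Acadm at -0.10. Of 18 lipid-associated macrophage genes 2, Mmp12 and Lpl, were higher and none lower (median 0.32), or 1 higher with DESeq2 size factors, under which Lpl is not called, with Trem2 at -0.01 and Gpnmb at 0.33.

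Products of alternative activation were lower with 25-HC for many members and higher beyond 2-fold for none. Of 26 compared genes 11 were at least 2-fold lower, 21 were below 0 and the median was -0.75, and for 10 of 26 the 25-HC library was the lowest of the 6, against 16.0% of all genes. Retnla, a resistin-like protein made in allergic lung, was at 15.2 CPM with 25-HC, 318 with fatostatin, 147 with betulin, 10.9 with PF429424, 23.5 with 1,10-Phen and 470.5 with IL4 alone. The 25-HC, PF429424 and 1,10-Phen libraries were all low and the other 3 higher, and the ratio of 25-HC to IL4 alone was -4.94 (interval -5.11 to -4.79). Ccl24, an eosinophil chemoattractant, was at 0.774 CPM with 25-HC, 17.4 with fatostatin, 5.16 with betulin, 0.837 with PF429424, 0.643 with 1,10-Phen and 15.2 with IL4 alone, with the same 3 low libraries and a ratio of -4.13. Rnase2a, an eosinophil-associated ribonuclease, was at 14.7 CPM with 25-HC, 146 with fatostatin, 97.0 with betulin, 21.4 with PF429424, 18.7 with 1,10-Phen and 233 CPM with IL4 alone (-3.98). The PF429424 and 1,10-Phen libraries were low here too. Mrc1, the mannose receptor, was at 472 CPM with 25-HC, 2479 with fatostatin, 1256 with betulin, 1060 with PF429424, 951 with 1,10-Phen and 2071 with IL4 alone, with a ratio of -2.13 (interval -2.17 to -2.1). Here the 25-HC library was the lowest, less than each of the other 5 by at least 2-fold. The betulin, PF429424 and 1,10-Phen libraries were below IL4 alone as well. Pdcd1lg2, the gene of the checkpoint ligand PD-L2, was at 8.06 CPM with 25-HC, 41.6 with fatostatin, 25.2 with betulin, 17.7 with PF429424, 58.2 with 1,10-Phen and 49.97 with IL4 alone, again lowest with 25-HC, with a ratio of -2.62 (interval -2.87 to -2.4). Tfrc, the transferrin receptor, was at 116 CPM with 25-HC and 571 CPM with IL4 alone (-2.3), Fn1, fibronectin, at 393 CPM with 25-HC and 1175 CPM with IL4 alone (-1.58), Plxdc2 at -1.99, the protease gene Ctsc at -1.67 and Ptgs1, a cyclooxygenase gene, at -1.04. The Ptgs1 level with 25-HC, 112 CPM, was within the range of the other 4 compounds, and the IL4 library stood apart at 230.1 CPM. Unlike Retnla and Mrc1, the well-known products Arg1 and Chil3 were lower by less than 2-fold. Arg1, arginase, was at 2071 CPM with 25-HC, 5170 with fatostatin, 3297 with betulin, 1984 with PF429424, 8180 with 1,10-Phen and 3573 with IL4 alone, a ratio of -0.79, and Chil3, a chitinase-like protein, at 1653 CPM with 25-HC, 5200 with fatostatin, 2792 with betulin, 4557 with PF429424, 9733 with 1,10-Phen and 3206 with IL4 alone, a ratio of -0.96; its near-identical neighbour Chil4 was at -1.59, and reads could be split between them. Mgl2, Clec10a and Ccl22 had ratios of -0.71, -0.68 and -0.67. Members on the other side were Il1rn, the IL-1 receptor antagonist (0.95), Tgm2, a transglutaminase (0.52), Cdh1 (0.30) and Clec7a (0.19).

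The machinery upstream of these genes did not share this pattern. Of 17 genes of the IL4 receptor, STAT6 and its transcription factors, none was at least 2-fold higher and 2 were lower, and the median was 0.13. Il4ra was at 91.8 CPM with 25-HC and 94 CPM with IL4 alone (-0.03), Stat6 at 287 CPM with 25-HC and 263 CPM with IL4 alone (0.13), Il2rg at 0.18, Il13ra1 at 0.64 and Jak1 at -0.17. The lower genes were Irf4, a factor needed for several alternative activation genes, at 39.3 CPM with 25-HC, 70.4 with fatostatin, 56.6 with betulin, 56.1 with PF429424, 8.46 with 1,10-Phen and 85 with IL4 alone and a ratio of -1.11, and Socs1, a feedback inhibitor of cytokine signalling, at 13.7 CPM with 25-HC and 29 CPM with IL4 alone (-1.08). Pparg was at 0.28, Klf4 at 0.77, Egr2 at 0.72, Kdm6b at 0.53 and Bhlhe40 at 0.99, just under 2-fold. The promoters of Retnla and Pdcd1lg2 are shown because they are the alternative activation genes past 2-fold that hold the spaced palindrome STAT6 binds, TTC, 4 bases, GAA, in capitals. Retnla lies on the plus strand at chr16:48842359-48842658 and its match runs from -145 to -136; Pdcd1lg2 lies on the plus strand at chr19:29410669-29410968 and its match runs from -82 to -73.
Retnla: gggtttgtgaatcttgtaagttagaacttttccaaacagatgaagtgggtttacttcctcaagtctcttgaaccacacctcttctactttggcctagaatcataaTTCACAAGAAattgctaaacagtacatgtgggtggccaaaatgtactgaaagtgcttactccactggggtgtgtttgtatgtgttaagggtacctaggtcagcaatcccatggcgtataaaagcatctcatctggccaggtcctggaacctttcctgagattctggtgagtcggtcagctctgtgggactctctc
Pdcd1lg2: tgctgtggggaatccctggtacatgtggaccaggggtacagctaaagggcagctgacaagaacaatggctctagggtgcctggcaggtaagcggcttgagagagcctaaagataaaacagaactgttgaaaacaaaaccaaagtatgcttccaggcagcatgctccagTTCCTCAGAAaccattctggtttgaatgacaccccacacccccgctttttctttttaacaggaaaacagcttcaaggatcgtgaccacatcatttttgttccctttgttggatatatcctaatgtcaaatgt
This palindrome reads the same on both strands and is common, in 6.95% of promoters and 8.01% of genes with a promoter. A promoter was found for 16 alternative activation genes and 4 of these held it, the other 2 being Clec7a and Il1rn, which were not lower.

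**Figure D3:**
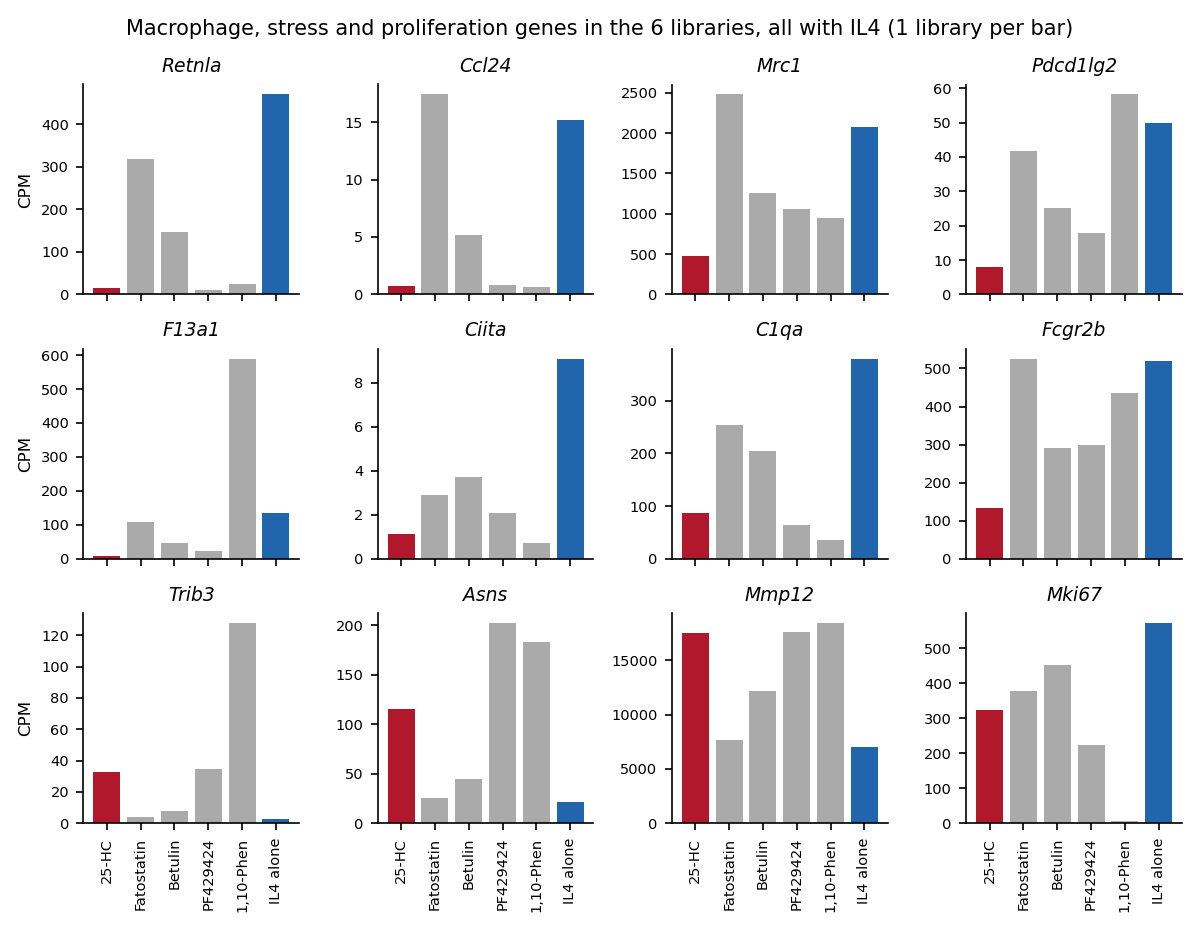
Level in CPM (vertical axis, from 0) of 12 macrophage, stress and proliferation genes in each of the 6 libraries (horizontal axis), 1 bar per library, with 25-HC in red, IL4 alone in blue and the other compounds in grey. Mrc1, Pdcd1lg2, F13a1 and Fcgr2b have their lowest bar with 25-HC, whereas for Retnla, Ccl24, C1qa, Trib3, Asns and Mmp12 the 25-HC bar is closer to a bar of PF429424 or 1,10-Phen than to that of IL4 alone.

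Genes of antigen presentation by MHC class II were lower with 25-HC, and less so against the median of the other 5 libraries than against IL4 alone. Of 16 compared class II genes and regulators 8 passed 2-fold downward with 25-HC and none upward, and the median was -0.99. Ciita, the transactivator that switches on the class II promoters, was at 1.14 CPM with 25-HC, 2.92 with fatostatin, 3.7 with betulin, 2.07 with PF429424, 0.696 with 1,10-Phen and 9.08 with IL4 alone, with a ratio of -2.89 (interval -3.66 to -2.39). Cd74, the invariant chain, was at 121 CPM with 25-HC, 212 with fatostatin, 181 with betulin, 109 with PF429424, 164 with 1,10-Phen and 408 with IL4 alone, with a ratio of -1.75. The chains H2-Ab1, H2-Aa and H2-Eb1 had ratios of -1.61, -1.64 and -1.57, the peptide exchange genes H2-DMa and H2-DMb2 of -1.66 and -2.16, and Rfx5, a subunit of the promoter-binding complex, of -1.04. Against the median of the other 5 libraries in place of the IL4 library, the median of the list was -0.37 and 2 of the 16 genes were at least 2-fold lower. H2-Eb1 is shown because it is the class II gene past 2-fold whose promoter holds the X box core CTAGNAAC, in capitals from -94 to -87 at chr17:34305617-34305916 (plus strand). The core occurs in 3.62% of promoters and 4.12% of genes with a promoter, and in 2 of the 12 list members with one in the table.
H2-Eb1: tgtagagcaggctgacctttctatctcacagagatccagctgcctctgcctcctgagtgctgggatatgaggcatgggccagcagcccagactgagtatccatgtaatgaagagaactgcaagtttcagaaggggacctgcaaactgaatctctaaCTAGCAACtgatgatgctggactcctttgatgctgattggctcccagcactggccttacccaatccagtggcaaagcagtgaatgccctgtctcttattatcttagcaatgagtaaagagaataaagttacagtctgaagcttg
Of 18 class I and peptide loading genes 1 was higher and 1 lower past 2-fold (median -0.39). The lower one was the immunoproteasome subunit Psmb9 (-1.08), and the higher one, H2-Q6 (78 counts with 25-HC and 16 with IL4 alone), belongs to a cluster of near-identical genes and is uncertain. Of 14 checkpoint ligands and costimulators 1 was higher and 4 were lower (median -0.43): beside Pdcd1lg2, the costimulator Cd86 was at 3.42 CPM with 25-HC and 8.94 CPM with IL4 alone (-1.36), Tnfsf14 at -1.32 and Icosl at -1.03, and the nectin-like ligand Pvr was the higher one at 1.15. Against the median of the other 5 libraries the Icosl ratio was 0.0437, the IL4 library being the highest of the 6.

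Genes of uptake and clearance receptors and of complement were lower for many members. Of 26 scavenger and lectin receptors 8 were at least 2-fold lower and 2 higher (median -0.32). Cd163, which takes up haemoglobin, was at 0.911 CPM with 25-HC, 10.1 with fatostatin, 3.66 with betulin, 1.57 with PF429424, 1.18 with 1,10-Phen and 13.5 with IL4 alone, with a ratio of -3.76 (interval -4.62 to -3.24); the PF429424 and 1,10-Phen libraries were low too. Stab1 was at 428 CPM with 25-HC and 1591 CPM with IL4 alone (-1.89), the sialic acid receptor Siglec1 at 47.1 CPM with 25-HC and 184 CPM with IL4 alone (-1.97) and Mertk, which engulfs dying cells, at 40.7 CPM with 25-HC and 85.2 CPM with IL4 alone (-1.06). The lectins Clec4a1, Clec4n and Clec4a3 had ratios of -2.54, -1.88 and -1.85, and as members of 1 cluster of related genes may share reads. Olr1, the receptor for oxidised LDL, was higher at 11.3 CPM with 25-HC, 5.27 with fatostatin, 3.19 with betulin, 4.04 with PF429424, 2.09 with 1,10-Phen and 3.68 with IL4 alone, a ratio of 1.6 (interval 1.25 to 2.01), and the 25-HC library was the single high one. Clec5a was higher as well at 1.5. Of 18 complement genes 9 were lower and none higher past 2-fold (median -0.93). Against the median of the other 5 libraries the median of this list was -0.43, and for C1q the low level was shared. C1qa was at 87.3 CPM with 25-HC, 253 with fatostatin, 204 with betulin, 64.3 with PF429424, 36.3 with 1,10-Phen and 379.6 with IL4 alone, with a ratio of -2.12, and C1qb and C1qc had ratios of -1.72 and -1.73. C3 was at 38.7 CPM with 25-HC and 89.6 CPM with IL4 alone (-1.21), properdin, Cfp, at 119 CPM with 25-HC and 300.1 CPM with IL4 alone (-1.33) and the complement receptor gene Vsig4 had 5 counts with 25-HC and 30 with IL4 alone.

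Genes that mark the macrophage lineage were lower in part, while most lineage transcription factors were near their level with IL4 alone. Of 24 surface and identity genes 9 were at least 2-fold lower and 1 higher (median -0.67), and 20 were below 0. The 25-HC library was the lowest of the 6 for 8 of the 24, against 16.0% of all genes. Against the median of the other 5 libraries the median of the list was -0.23. Fcgr2b, the inhibitory IgG receptor, was at 134 CPM with 25-HC, 525 with fatostatin, 290.5 with betulin, 299 with PF429424, 437 with 1,10-Phen and 519.5 with IL4 alone, with a ratio of -1.96 (interval -2.02 to -1.9). The 25-HC library was the lowest, and betulin, PF429424 and 1,10-Phen lay between it and IL4 alone. Fcgr4 was at -1.87, Fcgr3 at -1.03, Ms4a7 at -1.47, Cd33 at -1.28 and Adgre1, the F4/80 antigen, at 394 CPM with 25-HC and 946 CPM with IL4 alone (-1.26). Csf1r and Lyz2 were lower by less than 2-fold (-0.89 and -0.80). Cd14, the lipopolysaccharide co-receptor, was the higher gene at 123 CPM with 25-HC, 41.5 with fatostatin, 63.2 with betulin, 44.3 with PF429424, 84.8 with 1,10-Phen and 44.1 with IL4 alone, a ratio of 1.48 (interval 1.37 to 1.59), and was highest with 25-HC. The chemokine receptors Ccr2 and Cx3cr1 had ratios of -1.5 and -1.37, yet their levels with 25-HC, 13.4 and 3.46 CPM, were above the median of the other 5 libraries, the IL4 library being the highest of the 6. Of 27 lineage transcription factors 4 were lower and 1 higher (median 0.09). Maf, which controls a part of the resident macrophage program, was at 28.5 CPM with 25-HC, 196 with fatostatin, 72.9 with betulin, 51.9 with PF429424, 112 with 1,10-Phen and 182 with IL4 alone, with a ratio of -2.68 (interval -2.81 to -2.56), whereas Spi1 was at 0.31. Tfec, Klf2 and Id3 had ratios of -1.17, -1.13 and -1.05, and Nr4a3 of 1.19 from 26 counts with 25-HC and 10 with IL4 alone.

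Enzyme genes of lipid mediators and a purinergic receptor gene were among the lowest ratios. Of 20 prostaglandin and leukotriene genes 7 were at least 2-fold lower and 2 higher (median -0.26). Hpgd, the enzyme that inactivates prostaglandins, was at 1.05 CPM with 25-HC, 12.1 with fatostatin, 2.86 with betulin, 1.57 with PF429424, 0.91 with 1,10-Phen and 24.5 with IL4 alone, with a ratio of -4.43 (interval -5.22 to -3.95), and Cbr2, a carbonyl reductase, at 0.956 CPM with 25-HC, 32.7 with fatostatin, 6.1 with betulin, 2.36 with PF429424, 1.71 with 1,10-Phen and 22.4 with IL4 alone, with a ratio of -4.42 (interval -5.26 to -3.92). For both genes fatostatin and IL4 alone were the high libraries. Alox5 was at -1.9, the prostaglandin D synthase gene Hpgds at -1.4 and Pla2g15 and Pla2g7 at -1.23 and -1.11, while the inducible cyclooxygenase gene Ptgs2 (8.7 CPM with 25-HC and 2.84 CPM with IL4 alone; 1.58) and the receptor gene Ptger4 (1.3) were higher. Of 13 purinergic and adenosine genes 4 were lower and 1 higher (median -0.44). P2ry12 had 4 counts with 25-HC and 130 with IL4 alone, a ratio of -4.47 (interval -6.95 to -3.66), P2ry13 was at -2.82, P2ry14 at -1.92 and the ectonucleotidase gene Entpd1 at -1.69, and P2ry2 was the higher gene at 1.31. Of 20 chemoattractant receptors 3 were lower and 1 higher (median -0.09). They include Fpr1, the formyl peptide receptor, with 2 counts with 25-HC and 33 with IL4 alone and an interval of -7.18 to -2.11, and Ccrl2, the higher gene, at 1.42.

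Genes of the ATF4 program, which cells switch on when amino acids run short or protein folding fails, were higher. Of 23 compared members 9 were at least 2-fold higher with 25-HC and none lower, 19 were above 0 and the median was 0.83. Trib3, a pseudokinase that feeds back on ATF4, was at 32.6 CPM with 25-HC, 3.91 with fatostatin, 7.78 with betulin, 34.4 with PF429424, 128 with 1,10-Phen and 2.79 with IL4 alone, with a ratio of 3.5 (interval 3.16 to 3.95). Chac1, which degrades glutathione, was at 6.6 CPM with 25-HC, 0.659 with fatostatin, 1.55 with betulin, 14.6 with PF429424, 15.1 with 1,10-Phen and 0.512 with IL4 alone, with a ratio of 3.46. Asns, asparagine synthetase, was at 116 CPM with 25-HC, 25.1 with fatostatin, 45 with betulin, 202 with PF429424, 183 with 1,10-Phen and 21.7 with IL4 alone, with a ratio of 2.41 (interval 2.27 to 2.56). In all 3 the 1,10-Phen and PF429424 libraries were higher than the 25-HC library, and IL4 alone was the lowest. Ddit3, which encodes CHOP, was highest with 25-HC, at 73.8 CPM with 25-HC, 26.5 with fatostatin, 33.1 with betulin, 46.1 with PF429424, 62.5 with 1,10-Phen and 21.8 with IL4 alone and a ratio of 1.75. Atf4 itself was at 453 CPM with 25-HC and 160.3 CPM with IL4 alone (1.5), Atf5 at 1.04, the phosphatase subunit gene Ppp1r15a at 1.7 and the autophagy receptor gene Sqstm1 at 1.37. With the median of the other 5 libraries in place of the IL4 library, 4 of the 23 were at least 2-fold higher. The 4 kinases that can start the program were within 2-fold, with ratios from -0.28 to 0.20 and a median of 0.03. Chaperones and degradation genes of the endoplasmic reticulum did not share the direction: of 24, none was past 2-fold either way, the median was -0.02, Hspa5 (BiP) was at 0.05, Pdia4 at -0.82 and Dnajb9 at 0.69.

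The promoters of Trib3 and Chac1 are shown because these ATF4 genes have the largest ratios and hold the core TGATGNAA of the CEBP-ATF element, in capitals, on the reverse strand in both. Trib3 lies at chr2:152344011-152344310 (minus strand) with the match from 14 to 21, and Chac1 at chr2:119350992-119351291 (plus strand) with the match from -193 to -186.
Trib3: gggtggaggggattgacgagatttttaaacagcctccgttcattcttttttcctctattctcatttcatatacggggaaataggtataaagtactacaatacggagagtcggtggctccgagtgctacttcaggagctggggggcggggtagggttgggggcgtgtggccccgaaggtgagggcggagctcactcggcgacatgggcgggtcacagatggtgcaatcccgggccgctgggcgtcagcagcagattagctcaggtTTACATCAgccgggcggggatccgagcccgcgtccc
Chac1: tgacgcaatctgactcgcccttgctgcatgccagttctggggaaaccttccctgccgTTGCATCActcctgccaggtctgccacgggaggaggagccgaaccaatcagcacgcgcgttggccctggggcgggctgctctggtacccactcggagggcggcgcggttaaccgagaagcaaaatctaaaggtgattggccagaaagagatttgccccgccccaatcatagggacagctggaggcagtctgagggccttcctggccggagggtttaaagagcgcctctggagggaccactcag
The core is found in 3.97% of promoters and in 4.51% of genes with a promoter. It was held by 7 of the 20 ATF4 genes with a promoter in the table, by 5 of 13 cytosolic synthetases, by 3 of 15 serine and amino acid synthesis genes and by 3 of 16 amino acid transporters.

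Groups that hold known ATF4 targets, the synthetases, amino acid synthesis and amino acid transport, were on the higher side. Of 20 cytosolic aminoacyl-tRNA synthetases, which charge tRNAs for translation in the cytosol, 3 passed 2-fold upward, 19 had a ratio above 0 and the list had a median of 0.57. Aars was at 306 CPM with 25-HC, 136 with fatostatin, 186 with betulin, 348 with PF429424, 336 with 1,10-Phen and 126 with IL4 alone, a ratio of 1.29 (interval 1.22 to 1.35), Sars at 1.14 and Cars at 1.13. The exception was Qars at -0.11. The 17 mitochondrial synthetases, products of separate genes, had a median of 0.03, with 9 above 0 and 8 below 0 and none past 2-fold, from Cars2 at -0.62 to Yars2 at 0.74. Of 18 genes of serine, one-carbon and amino acid synthesis 4 were higher and none lower (median 0.47): beside Asns, these were the mitochondrial folate enzyme Mthfd2 at 118 CPM with 25-HC and 34.6 CPM with IL4 alone (1.77), Psat1 of serine synthesis at 1.07 and Pycr1 of proline synthesis at 1.24. Of 21 amino acid transporters 5 were higher and 1 was lower (median 0.36). Against the median of the other 5 libraries the median of this list was 0.02. The 25-HC library was the highest of the 6 for 1 of the 21 and the lowest for 5. Slc7a5 was at 1.54, the cationic amino acid transporter Slc7a1 at 129.6 CPM with 25-HC and 45.3 CPM with IL4 alone (1.52), Slc6a9, a glycine transporter, at 1.21, Slc1a4 at 1.2 and Slc38a2 at 1.0. The lower gene was Slc43a2 at -1.33. The 25-HC library was the highest of the 6 for 3 of the 20 cytosolic synthetases, against 17.3% of all genes.

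**Figure D4:**
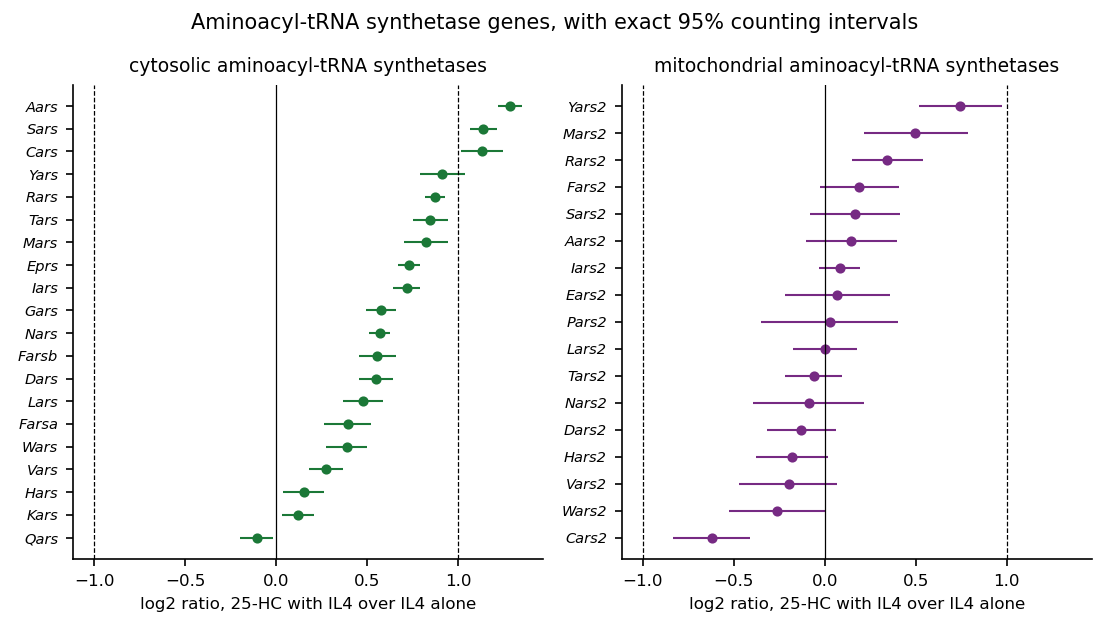
Log2 ratio of 25-HC with IL4 over IL4 alone (horizontal axis) for 20 cytosolic (left) and 17 mitochondrial (right) aminoacyl-tRNA synthetase genes (vertical axis), as points with exact 95% counting intervals and dashed lines at 2-fold. All cytosolic genes but Qars lie above 0, and the mitochondrial genes lie on both sides of 0.

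Inflammatory mediators were higher in part and lower in part. Of 23 cytokines and growth factors 6 were at least 2-fold higher with 25-HC and 4 were lower (median 0.49). Il1a was at 10.8 CPM with 25-HC, 4.24 with fatostatin, 4.5 with betulin, 3.64 with PF429424, 1.66 with 1,10-Phen and 2.19 with IL4 alone, with a ratio of 2.26 (interval 1.85 to 2.79), and the 25-HC library was more than 2-fold above each of the other 5. Tnf was at 27.2 CPM with 25-HC, 9.93 with fatostatin, 14.4 with betulin, 24.9 with PF429424, 4.23 with 1,10-Phen and 8.43 with IL4 alone, a ratio of 1.68, with PF429424 close behind. Pdgfb, a growth factor for mesenchymal cells, was at 144 CPM with 25-HC, 41.2 with fatostatin, 62.2 with betulin, 57.2 with PF429424, 15.2 with 1,10-Phen and 58.6 with IL4 alone, a ratio of 1.3 (interval 1.2 to 1.39), and Pdgfa was at 1.3, high with PF429424 too. Hbegf was at 1.83 and Vegfa at 164 CPM with 25-HC, 103 with fatostatin, 62.7 with betulin, 75.7 with PF429424, 343 with 1,10-Phen and 46.3 with IL4 alone, a ratio of 1.83. The lower genes were Il15 (-1.47), Ebi3 (-1.25), Tnfsf13b (-1.21) and Il18 (-1.01). Il1b had few counts, 45 with 25-HC and 25 with IL4 alone. Of 17 chemokines 6 were higher and 4 lower (median -0.46). The neutrophil attractants Cxcl2 and Cxcl3 were at 7.47 CPM with 25-HC and 1.44 CPM with IL4 alone (2.3) and 2.69 CPM with 25-HC and 0.745 CPM with IL4 alone (1.73), Ccl3 was at 1.38, Ccl4 at 1.37 and Cxcl14 at 1.37. Ccl7 had a ratio of 1.31 to IL4 alone but lay below the median of the other 5 libraries, the IL4 library being the lowest. Lower chemokines beside Ccl24 were Ccl6 (-1.16), Pf4 (-1.11) and Ccl8, with 0 counts with 25-HC and 6 with IL4 alone. Of 25 NF-kB targets and feedback genes 4 were higher and 2 lower (median 0.24): Dusp1, a phosphatase that ends MAP kinase signals, was at 222 CPM with 25-HC and 52.5 CPM with IL4 alone (2.08), Tnfaip3 (A20) at 154 CPM with 25-HC and 46.9 CPM with IL4 alone (1.72), Socs3 at 1.43, Cd83 at -1.67 and Ier3 at -1.43. Of 24 immediate early and heat shock genes 4 were higher and none lower (median 0.55). The 25-HC library was the highest of the 6 for 11 of these, against 17.3% of all genes. Fosl1 was at 2.74 and Fosb at 1.75, with 57.2% of the exon bases of Fosl1 shared with another annotated gene, and the near-identical pair Hspa1a and Hspa1b at 1.09 and 1.23. Beside these values, 7 of the 12 neutrophil markers had a ratio above 0 and 5 below 0, and their summed level was 827 CPM with 25-HC and 825 CPM with IL4 alone.

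Sensors and interferon genes were on the lower side. Of 21 Toll-like receptor genes and adaptors 6 were at least 2-fold lower and 1, Cd14, was higher (median -0.28). Against the median of the other 5 libraries the median of this list was -0.07. Tlr8 was at 188 CPM with 25-HC and 572 CPM with IL4 alone (-1.6), Tlr7 at -1.11, Tlr1 at -1.2, Tlr2 at -1.09 and Tlr9 at -1.92, and Tlr5 had 2 counts with 25-HC and 33 with IL4 alone. Of 31 interferon-stimulated genes 6 were lower and none higher (median -0.38), and 26 were below 0. The 25-HC library was the lowest of 6 for 10 of the 31, against 16.0% of all genes. Zbp1 was at 4.6 CPM with 25-HC and 16.1 CPM with IL4 alone (-1.79), Usp18 at 9.02 CPM with 25-HC and 27.3 CPM with IL4 alone (-1.59), Oas2 at -1.33 and the guanylate-binding protein genes Gbp2, Gbp3 and Gbp7, which resemble each other and may share reads, at -1.8, -2.14 and -1.54.

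Mitosis genes were lower throughout and DNA replication genes for the most part, mostly by less than 2-fold. All 30 compared mitosis genes had a ratio below 0, from -1.43 to -0.34, with 6 at least 2-fold lower and a median of -0.84. Mki67, the proliferation marker, was at 323 CPM with 25-HC, 379 with fatostatin, 451 with betulin, 224 with PF429424, 5.04 with 1,10-Phen and 571 with IL4 alone, a ratio of -0.82, and Top2a was at 133 CPM with 25-HC and 289 CPM with IL4 alone (-1.12), Ccnb2 at -1.37, Nuf2 of the kinetochore at -1.43 and Aurkb at -1.23. The IL4 library had the highest level of these named genes and the 1,10-Phen library the lowest, and the median against the other 5 libraries was -0.35. Of 29 genes of DNA replication and nucleotide supply 26 were below 0 and 1, thymidine kinase Tk1 (-1.54), was at least 2-fold lower (median -0.47). Among 25 cell cycle brakes and p53 targets 3 were higher and 3 lower (median -0.14): Gadd45a was at 1.86, Gadd45b at 1.81 and Mdm2 at 597 CPM with 25-HC and 228 CPM with IL4 alone (1.38), against Sesn1 at -2.11, Fas at -1.63 and Cdkn2c at -1.25.

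Matrix, iron and metabolic genes gave a few large values. Of 28 matrix genes, proteases and factor XIII 3 were higher and 5 lower (median -0.06). F13a1, the factor XIII subunit of alternatively activated macrophages, was at 9.29 CPM with 25-HC, 109 with fatostatin, 46.8 with betulin, 22 with PF429424, 589 with 1,10-Phen and 135 with IL4 alone, with a ratio of -3.85 (interval -4.08 to -3.66); the 25-HC library was the lowest and 1,10-Phen the highest. Mmp13, a collagenase, was at 1778 CPM with 25-HC, 630.3 with fatostatin, 937 with betulin, 1392 with PF429424, 6292 with 1,10-Phen and 442 with IL4 alone, a ratio of 2.01, Mmp12, the macrophage elastase, at 17479 CPM with 25-HC, 7650 with fatostatin, 12184 with betulin, 17641 with PF429424, 18413 with 1,10-Phen and 7019 with IL4 alone, a ratio of 1.32, and Mmp19 at 1.17. Fatostatin and IL4 alone were the low libraries for Mmp12 and Mmp13. Versican, Vcan, was at 6.06 CPM with 25-HC and 32.9 CPM with IL4 alone (-2.42), the protease inhibitor gene Timp2 at -1.92 and Thbs1 at -1.71. Of 18 iron and metal genes none was higher and 2 were lower (median -0.01): Tfrc and the iron exporter Slc40a1, at 46.3 CPM with 25-HC and 180.5 CPM with IL4 alone (-1.96), while ferritin heavy chain, Fth1, was at 0.15 and Mt1 at -0.96. Of 31 hypoxia and glycolysis genes 25 were above 0, 2 were at least 2-fold higher, Vegfa and Pfkp (1.06), and 1, Pfkm (-1.09), was lower (median 0.29). Of 26 NRF2 targets none was higher and 2, Nqo1 (-1.47) and Mgst1 (-1.18), were lower (median -0.15), with Hmox1 at 0.42. Of 7 genes of the aryl hydrocarbon receptor pathway 2, Ahrr (-1.61) and Nqo1, were lower and none higher (median -0.18). The Ahrr level with 25-HC, 15 CPM, was above the median of the other 5 libraries by 0.65 on the log2 scale, the IL4 library being the highest of the 6. Of 17 clock genes 4 were higher and 2 lower (median 0.39): Bhlhe41 (1.77), Per2 (1.4), Npas2 (1.34) and Cry1 (1.01) against Dbp (-1.98) and Per3 (-1.75). Of 32 lysosomal genes 2, Ctsc and Ctsf (-1.68), were lower and none higher (median -0.25). For 14 of the 32 the 25-HC library was the lowest of 6, against 16.0% of all genes. None of 30 cytosolic ribosomal protein genes was past 2-fold (median -0.16), and 26 were below 0. For 20 of the 30 the 25-HC library was the lowest, against the same 16.0% of all genes.

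**Figure D5:**
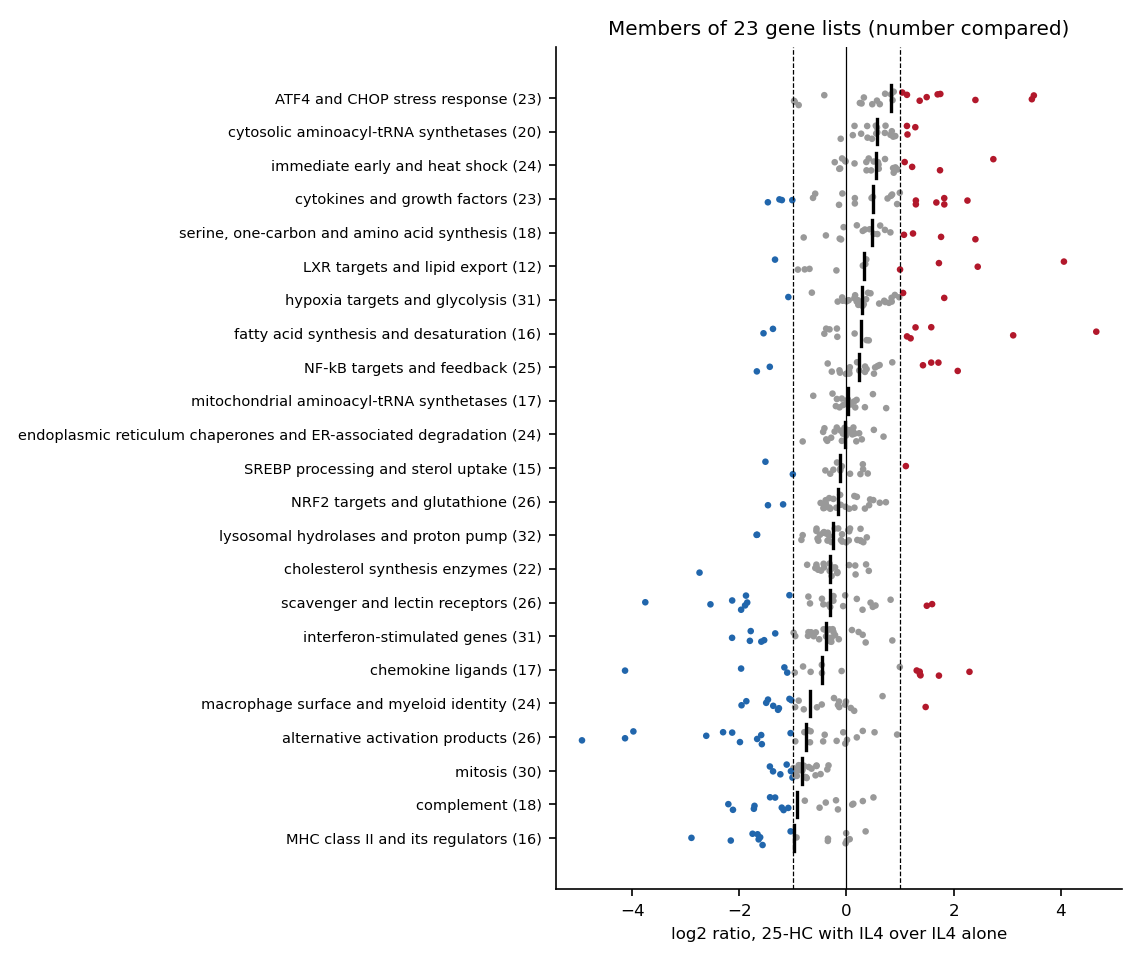
Log2 ratios of 25-HC with IL4 over IL4 alone (horizontal axis) of the members of 23 gene lists (vertical axis, number compared in brackets), with members at least 2-fold higher in red and at least 2-fold lower in blue, the median of each list as a black bar and dashed lines at 2-fold. ATF4 genes have the highest median at 0.83 and MHC class II genes the lowest at -0.99, while fatty acid synthesis and LXR lists hold their highest members far to the right of their medians.

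A small set of genes had a level with 25-HC that was at least 2-fold away from every other library. At least 2-fold above each of the other 5 libraries were 29 genes, or 0.244% of those compared, and at least 2-fold below each were 54, or 0.454%. Leaving aside predicted genes and those under 50 counts in both of the compared libraries, 22 were above and 25 below. Abca1, Scd1, Scd2, Abcg1 and Acsl3 of the lipid lists, Il1a, Pdgfb and Olr1 were among the 22. Further members were Abca5, a lipid transporter gene (1.46), and Sgms2, a sphingomyelin synthase gene, at 19.7 CPM with 25-HC and 6.24 CPM with IL4 alone (1.64). Cav1, which encodes the caveolae protein caveolin, was at 72.8 CPM with 25-HC, 13.2 with fatostatin, 23.1 with betulin, 18.7 with PF429424, 8.46 with 1,10-Phen and 11.2 with IL4 alone, with a ratio of 2.69 (interval 2.51 to 2.91). Car2, carbonic anhydrase, was at 75.1 CPM with 25-HC, 15.8 with fatostatin, 20.4 with betulin, 26.7 with PF429424, 12.2 with 1,10-Phen and 13.1 with IL4 alone, with a ratio of 2.51 (interval 2.34 to 2.71). Fbxo32 was at 59.3 CPM with 25-HC, 9.79 with fatostatin, 21.2 with betulin, 8.76 with PF429424, 13.7 with 1,10-Phen and 6.85 with IL4 alone, and Edn1, the vasoconstrictor endothelin, at 24.7 CPM with 25-HC, 4.85 with fatostatin, 6.89 with betulin, 11 with PF429424, 1.5 with 1,10-Phen and 7.54 with IL4 alone. Rgs16, a regulator of G protein signals (2.15), Pde1c, a phosphodiesterase (2.06), the deubiquitinase gene Otud1 (1.47), Six4 (2.52), Plxna4 (1.74) and P2rx5 (1.62) were further members, and Flnc and Efcc1 complete the set. Genes below every other library included Mrc1, Pdcd1lg2, Fcgr2b, F13a1, Chil4, Scn3a and Adgb. For Scn3a and Adgb this gap rests on few counts, and other libraries were low as well. Scn3a had 8 counts with 25-HC, 23 with PF429424, 16 with 1,10-Phen and 535 with IL4 alone. Adgb had 8 with 25-HC, 29 with PF429424, 25 with 1,10-Phen and 134 with IL4 alone. Gas6, the ligand that bridges dying cells to Mertk, was at 14.9 CPM with 25-HC, 105 with fatostatin, 50.9 with betulin, 31.1 with PF429424, 36.3 with 1,10-Phen and 96.7 with IL4 alone, with a ratio of -2.69 (interval -2.87 to -2.53). Hpse, heparanase, was at 13.6 CPM with 25-HC, 56.5 with fatostatin, 30.9 with betulin, 44.7 with PF429424, 56.4 with 1,10-Phen and 45.2 with IL4 alone, with a ratio of -1.72 (interval -1.92 to -1.54), and Fgl2, a fibrinogen-like protein gene, at -1.79. The multidrug transporter gene Abcb1a was at 2.55 CPM with 25-HC and 14.1 CPM with IL4 alone (-2.42), the sterol-binding relative Osbpl5 at -1.23, the potassium channel gene Kcnd3 at -2.2 and Gbp9 at -2.75. Rsc1a1 had 0 counts with 25-HC and 70 with IL4 alone, but all of its exon bases are shared with another annotated gene, so how its reads were assigned is uncertain and no fold is given. By contrast, the levels of Retnla, Ccl24, Hpgd and C1qa with 25-HC were matched or undercut in another compound's library, and those of Trib3, Chac1 and Asns were exceeded in the PF429424 and 1,10-Phen libraries.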

How the data were processed

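RNA was measured in 6 libraries of IL4-treated macrophages, 1 per treatment, and the 25-HC and IL4 libraries were compared. The authors deposited, per gene and library, RSEM expected counts and FPKM, per the file headers; HISAT2, Bowtie2, RSEM 1.2.12 and DESeq2 are named, without a role, in the submitters' processing notes. The strand setting, aligner settings and genome build are not given in the sources used here. Expected counts, of which 30.5% to 32.0% were not whole, were rounded. TMM factors came from edgeR 4.0.16 (R 4.3.3) over the 6 libraries, and CPM and log2 ratios (prior count 2) were computed from them in Python 3.11.15 with pandas 2.3.3, numpy 2.4.6 and SciPy 1.17.1; figures used matplotlib 3.10.9. Genes needed 1 CPM in at least 1 library. Intervals are exact 95% Clopper-Pearson intervals on the counts and cover counting error only; 3 counts were taken as the floor, 0.137 to 0.161 CPM. With 1 library a side no p-value was computed. The extremes named were the 15 highest and 15 lowest ratios with at least 50 counts and 5 CPM in either library; list members past 2-fold were named, with others of known role. The members, the 44 pathway lists and the 11 marker lists were chosen with earlier results of these data known. The 9 alternatives, among them DESeq2 1.42.0 size factors, are given below. RefSeq held 99.26% of the gene IDs. Some scripts were tested on simulated data. Some members of the lists are counted but not reported by name here.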

Additional observations from a re-analysis of the deposited data

How the results depend on the processing

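No paired analysis was possible because each treatment has 1 library, and leaving out a library leaves no comparison. Of the 216 named genes past 2-fold, 213 remained so in the same direction with DESeq2 size factors and 213 with plain totals, 216 with no filter, 193 of 193 with a minimum of 5 CPM, 216 with a prior count of 0.5, 203 with 10, and 215 with TMM over the 2 libraries. The 3 calls lost with DESeq2 size factors were Lpl (0.988), Slc38a2 (0.991) and Cry1 (0.994), and the same 3 were lost with plain totals (0.964, 0.966 and 0.970 in that order). The median of all genes stayed between -0.0286 and 0.0281. With the 5 CPM minimum 442 genes were at least 2-fold lower. On log2(FPKM + 1), which understates changes of low genes, 174 genes were higher and 340 lower, and 170 of the 216 remained past 2-fold. With the median of the other 5 libraries in place of IL4 alone, 182 genes were higher and 323 lower, 110 of the 216 remained, the class II list had 2 lower and the ATF4 list 4 higher members, and the lipid-associated macrophage list had 0 higher and 1 lower. Under that baseline the direction reversed for Ptgs1 (0.0187), Icosl (0.0437), Cx3cr1 (0.15), Ccr2 (0.52), Ccl7 (-0.27) and Ahrr (0.65); the cause was not tested. The spread between cultures was not measured, so how far any ratio would vary on repeating the experiment is not known, and at the depth used a level under about 0.137 to 0.161 CPM was not detectable.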
